A study of Mus musculus with 15 samples.

Results

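The chromatin around 7 mouse genes that belong to the programme of resting T cells was examined: Ccr7 and S1pr1, which encode trafficking receptors, Klf2 and Klf3, which encode Krüppel-like transcription factors, and Btg1, Btg2 and Tob1, which encode members of the BTG/TOB family of antiproliferative proteins. Peak lists of 15 ATAC-seq libraries were merged wherever peaks shared at least 1 bp, the 83743 regions with a peak in at least 2 libraries were kept, and each was assigned to its nearest protein-coding gene within 100 kb. This gave 114 regions for the 7 genes: 18 for Ccr7, 30 for S1pr1, 8 for Klf2, 8 for Klf3, 40 for Btg1, 7 for Btg2 and 3 for Tob1. A further 17 regions near these genes had a peak in 1 library and were not tested. Among the 8 Klf3 regions, 2 lay equally near to an overlapping gene, Gm38457, and were counted for Klf3. The farthest region inside the limit lay 98190 bp from Btg1, and the nearest region beyond it lay 100486 bp from Btg1.

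ATAC-seq inserts sequencing adapters into open DNA with the Tn5 transposase, so that a peak marks a stretch of accessible chromatin. The cells were CD4+ T cells of IRF5+/+ mice (wild type) or IRF5-/- mice (knockout), which lack the interferon regulatory factor IRF5. They were profiled untreated (0 h) or after 72 h of activation in vitro, so that 7 libraries were untreated (4 wild type, 3 knockout) and 8 activated (4 wild type, 4 knockout). The sources used here do not name the activating agent, the strain or the age of the mice, nor say whether a group's libraries stem from separate mice or cultures. The replicate spread behind every p-value may therefore be technical. Each group was a bulk sample, and fewer cells with an open region cannot be told apart from a less open region in each cell.

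CCR7 guides naive T cells along the chemokines CCL19 and CCL21 into lymph nodes, and S1PR1 senses sphingosine 1-phosphate and lets them leave again. KLF2 is known to drive S1pr1 in quiescent T cells, and FOXO factors are known activators of Klf2 and Ccr7. KLF3 is a related factor that mostly acts as a repressor. BTG1, BTG2 and TOB1 bind the CCR4-NOT deadenylase, which shortens the poly(A) tails of mRNA, and are known to hold T cells in quiescence. Activation through the T cell receptor is known to lower the transcripts of most of these genes.

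The sequence upstream of 4 of the gene starts is shown first, because each window lay within an accessible region whose height is described below. The windows hold the 250 bases before the start given by RefSeq (GRCm38.p6, the assembly behind mm10), and are written 5′ to 3′ on the gene's own strand. The promoter table matched 5 of the 7 genes, not Ccr7 and S1pr1. Capitals mark matches on either strand to CCNCNCCC (the CACCC or GC box type bound by KLF and SP factors), TGTTTAC (FOXO type) and CTANNNNTA (MEF2 type). The windows are chr8:72318812-72319061 on the plus strand for Klf2, chr5:64803271-64803520 on the plus strand for Klf3, chr10:96616751-96617000 on the plus strand for Btg1 and chr11:94211204-94211453 on the plus strand for Tob1.
Klf2: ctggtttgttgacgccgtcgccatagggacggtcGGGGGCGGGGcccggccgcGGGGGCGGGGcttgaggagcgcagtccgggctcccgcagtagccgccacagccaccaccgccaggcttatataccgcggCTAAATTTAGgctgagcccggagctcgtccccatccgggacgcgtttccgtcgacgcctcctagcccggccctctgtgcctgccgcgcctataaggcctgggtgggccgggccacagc
Klf3: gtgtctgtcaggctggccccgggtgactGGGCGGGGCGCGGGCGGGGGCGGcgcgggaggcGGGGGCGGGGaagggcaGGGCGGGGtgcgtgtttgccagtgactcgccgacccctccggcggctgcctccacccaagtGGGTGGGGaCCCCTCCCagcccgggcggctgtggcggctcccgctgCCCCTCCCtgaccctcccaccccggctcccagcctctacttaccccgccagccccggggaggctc
Btg1: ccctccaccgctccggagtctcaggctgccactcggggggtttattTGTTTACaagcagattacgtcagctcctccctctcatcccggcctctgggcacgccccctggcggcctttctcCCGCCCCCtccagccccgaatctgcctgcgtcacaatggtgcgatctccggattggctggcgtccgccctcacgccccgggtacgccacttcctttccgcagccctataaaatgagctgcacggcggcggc
Tob1: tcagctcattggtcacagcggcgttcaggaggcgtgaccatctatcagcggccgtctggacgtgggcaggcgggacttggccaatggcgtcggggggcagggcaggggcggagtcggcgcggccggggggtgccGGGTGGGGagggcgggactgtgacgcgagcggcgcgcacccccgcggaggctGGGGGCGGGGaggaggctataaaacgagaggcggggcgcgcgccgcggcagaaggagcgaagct
The Klf2 window held 4 overlapping CCNCNCCC matches in 2 clusters and 2 overlapping MEF2-type matches, 1 on each strand, which together span CTAAATTTAG, 118 to 109 bases before the start. The Klf3 window held 10 CCNCNCCC matches, some overlapping each other, and Tob1 held 3. The Btg1 window held 1 CCNCNCCC match and the only FOXO-type match of the 5 windows, TGTTTAC, 204 to 198 bases before the start. In the Btg2 window, on the minus strand at chr1:134079156-134079405, 3 CCNCNCCC matches were found. Of all 32817 promoter windows of this length, 45.9% held CCNCNCCC, 3.16% TGTTTAC and 18.96% CTANNNNTA. Matches to CCGGAAG (ETS type), CTTTGAT (TCF and LEF type), TGANTCA (AP-1 type) and GAAANNGAA (IRF type) were not found in the 5 windows; these letters occurred in 6.91%, 3.21%, 6.75% and 7.12% of all windows. The GC content of the 5 windows was 65.2% to 78.4%, against a median of 52.4% over all windows. A match of letters is a description and not a bound site.

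Depth and library quality touch all the values that follow. The libraries held 20.5 M to 29.0 M fragments after duplicates were removed. Peaks numbered 29994 to 47790 at 0 h and 55519 to 69086 at 72 h, and the duplicate share was 0.17 to 0.29 and 0.14 to 0.17. Knockout replicate 3 at 0 h stood apart, with the fewest peaks and a median log2 height of 0.85 over the regions called in every library, against 1.94 to 2.34 in the other 6 libraries at 0 h. At 72 h this median was 1.09 to 1.54. These library measures thus went with time, and their part in the differences between the times was not tested. Values without it are given for the counts, the start regions and the comparison of genotypes. The wild-type library labelled 4 came, per the file headers, from an alignment numbered 5 at both times. At Irf5 itself, 2 regions within the gene bounds (chr6:29526327-29528321 and chr6:29528398-29529417) had a peak in 3 of 3 and 2 of 3 knockout libraries at 0 h and in 4 of 4 at 72 h; which part of the gene was deleted is not stated, so these peaks do not check the labels.

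Marker genes were used to check the cell type. All 8 T cell markers, among them Cd3e, Cd4 and Lck, had a region within 1 kb that was called in all 15 libraries. Of the B cell genes, Cd79a, Pax5 and Ebf1 also had such a region in all 15 libraries, Blk had one in 8 and Cd22 one in 2, and Cd79b and Ms4a1 had none. By the test of presence described below, Ebf1 gained 5 of its 13 regions within 100 kb at 72 h. The B cell list gained 6 of 26 (23.1%) and lost 0, against 18.4% gained and 4.65% lost over all regions. The T cell list gained 7 of 95 (7.37%) and lost 14 (14.7%). Of the CD8 genes, Cd8b1 had a region in all 15 libraries and Cd8a one in 7. The T cell markers' summed height over regions within 1 kb ranged from 157 to 206 per M fragments in wild-type libraries at 0 h and from 61.4 to 83.3 at 72 h, and from 69.7 to 165 and 50.9 to 60.3 in knockout libraries. For the B cell list, 5 of 8 genes had a region within 1 kb, and the sums were 11.1 to 13.2 and 17.3 to 22.4 in wild type, and 4.59 to 10.3 and 12.9 to 15.4 in knockout. For the myeloid list, 6 of 8 genes had one. Their sums were 8.61 to 18.3 and 9.04 to 12.02 in wild type, and 5.36 to 15.9 and 7.83 to 9.35 in knockout. Spi1 and Cebpa had one in all 15 libraries, Cd14 in 14, Itgam in 10, Clec7a in 8 and Csf1r in 2. Lyz2 and Adgre1 had none. For the CD8 and NK list, 6 of 8 genes had one. Their sums were 7.76 to 11.4 and 7.93 to 11.4 in wild type, and 3.06 to 11.1 and 7.25 to 9.86 in knockout. Besides the CD8 genes, Eomes had one in 14 libraries, Gzma and Prf1 in 12 each and Klrk1 in 8. Klrb1c and Ncr1 had none. The part of these marker changes in the results below was not tested.

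Around the 7 genes, peaks were both lost and gained with activation. Comparing 72 h with 0 h within each genotype (two-sided exact conditional test, Benjamini-Hochberg adjustment over all 83743 regions, adjusted p under 0.05), 16 of the 114 regions lost their peak and 11 gained one. Over all tested regions, 4.65% were lost and 18.4% were gained, so that the 7 genes held 14.04% lost and 9.65% gained regions. Of the rest, 42 regions had a peak in all 15 libraries and 45 had some other pattern. When each library was cut to its 29994 strongest peaks, 85 regions of these genes remained, of which 25 were lost and 9 gained, and 14.1% and 14.8% of all regions were called. With 39807 peaks in each of 14 libraries, leaving out knockout replicate 3 at 0 h, 19 of 98 were lost and 9 gained, against 11% and 11.7% of all regions. Which count was larger depended on single libraries. Leaving out knockout replicate 2 at 72 h gave 10 lost and 11 gained regions, and leaving out knockout replicate 4 at 72 h gave 10 of each. There were 11 of each without wild-type replicate 2, 3 or 4 or knockout replicate 4 at 0 h, and without wild-type replicate 2 or 4 at 72 h. Without knockout replicate 3 at 0 h, 15 were lost and 11 gained.

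Per library, the share of the 114 regions with a peak was also compared. In wild type it was 70.2%, 78.1%, 81.6% and 75.4% at 0 h and 69.3%, 71.9%, 69.3% and 62.3% at 72 h. In knockout it was 75.4%, 58.8% and 75.4% at 0 h and 63.2%, 67.5%, 65.8% and 65.8% at 72 h, the 58.8% being replicate 3. The groups overlapped between the times in both genotypes. Over all tested regions the mean share was higher at 72 h, going from 51.8% to 71.9% in wild type, while knockout libraries went from 43.8% to 64.8%.

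**Figure D1:**
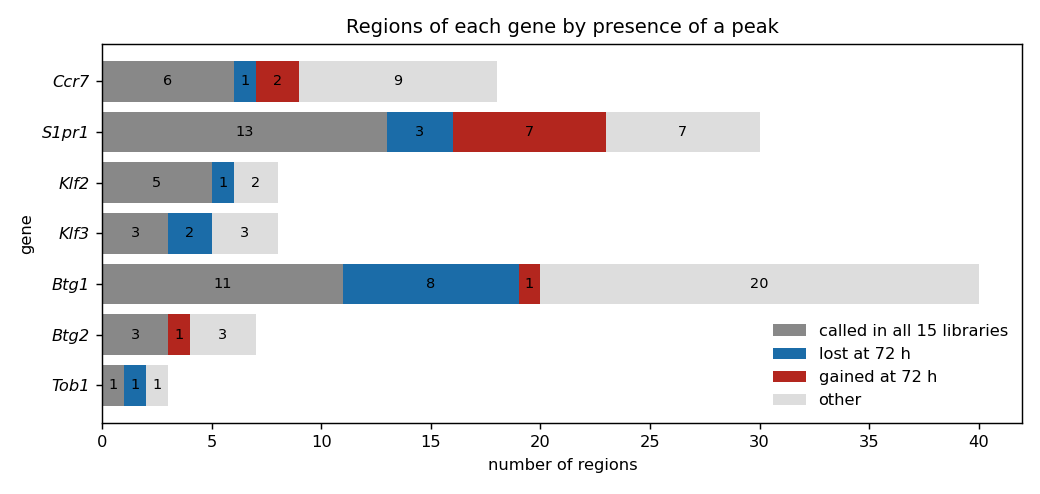
Number of regions of each gene (horizontal axis) by the presence of a peak: called in all 15 libraries, lost or gained at 72 h by the exact test, or other. S1pr1 had 7 of the 11 gained regions and Btg1 had 8 of the 16 lost ones.

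By gene, the counts are read against the 18.4% gained and 4.65% lost over all regions. S1pr1 gained 7 of its 30 regions (23.3%) and lost 3, Ccr7 gained 2 of 18 (11.1%) and lost 1, and Btg2 gained 1 of 7 (14.3%) and lost 0. The gained shares of S1pr1 and Btg2 were near that over all regions. Btg1 lost 8 of 40 and gained 1, Klf3 lost 2, and Klf2 and Tob1 lost 1 each, with none gained at these 3 genes. None of the gained regions lay within the bounds of its gene, the nearest being 3697 bp away at Btg2. Of the lost regions 2, in Btg1 and Klf3, overlapped the gene, as did 18 of all 114 regions of these genes. The shares of gained and lost regions within gene bounds were not counted over all tested regions, so no contrast is drawn. Differences between the genes were not tested.

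Height gave a second measure, the highest pileup of fragments in a region per M (1000000) filtered fragments, for regions with a peak in all 15 libraries. Of the 114 regions, 42 qualified, so that regions that lost or gained their peak are not among them. With limma on log2 height, averaged over both genotypes, 33 of the 42 were lower at 72 h, 1 was higher and 8 did not pass. Over all 21176 such regions, 65.4% were lower and 8.89% higher, and the median log2 difference was −0.66, against −1.15 for the 42. Relative to the median region of each library (heights centred on that median), 28 of the 42 were lower and 8 higher, against 39.1% lower and 34.4% higher of all regions. With quantile-normalized heights the counts were 28 and 6, against 36.1% and 32.5%. The 13 regions of these genes within 1 kb of the gene bounds were all lower per M, against 68.7% lower and 7.34% higher of all regions at that distance; relative to the median region 10 were lower and 1 higher, against 41.1% and 31.5%.

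In 13 of the 42 regions every library at 72 h was lower than every library at 0 h, and in none was every one higher; over all regions these shares were 9.24% and 3.43%. On the scale relative to the median region, 21 were lower throughout and 4 higher throughout, against 20.7% and 19.2% of all regions. The low heights of knockout replicate 3 at 0 h decide many overlaps per M, as the plot of gene starts shows.

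**Figure D2:**
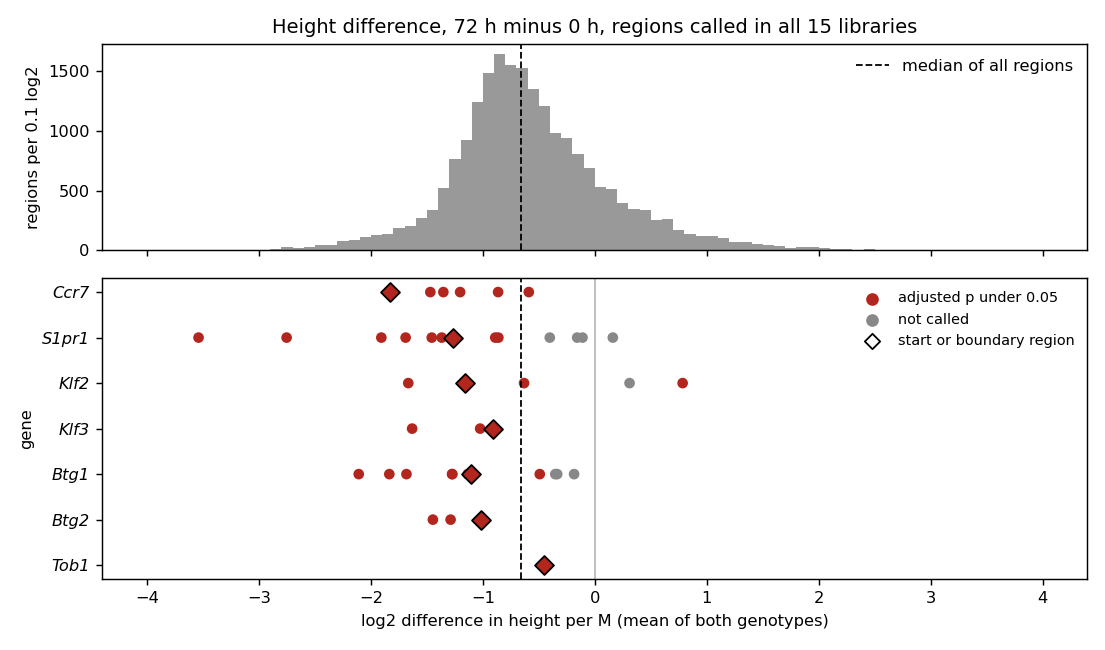
Log2 difference in height between 72 h and 0 h for all 21176 regions called in every library (upper panel, number of regions) and for the 42 regions of the 7 genes (lower panel, one row a gene, filled by adjusted p, diamonds for the start or boundary region). The dashed line is the median of all regions, −0.66, and 6 of the 7 diamonds lie to its left, with Tob1 to its right.

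Among the trafficking receptors, the Ccr7 boundary lost most of its accessibility. The region chr11:99154514-99155580, at the upper gene bound, had heights per M of 11.2, 9.896, 14.6 and 13.9 in the wild-type libraries and 12.04, 5.81 and 11.8 in the knockout libraries at 0 h, and 3.97, 3.12, 3.41 and 2.92 and 2.804, 2.74, 2.604 and 2.81 at 72 h. All 8 libraries at 72 h lay below all 7 at 0 h. The difference on the log2 scale was −1.83 ± 0.193 (limma, adjusted p = 7.12e-20), a 3.55-fold lower height, and −1.21 (adjusted p = 5.11e-20) relative to the median region; without knockout replicate 3 at 0 h it was −2.002 per M. At 0 h this region stood at percentile 92.3 of all such regions in wild type, and at 72 h at percentile 63.1. All 6 Ccr7 regions called in every library were lower per M at 72 h, with log2 differences from −1.83 to −0.59, against 65.4% lower of all regions. Relative to the median region 4 of the 6 were lower, against 39.1%.

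Peaks at Ccr7 also appeared and disappeared. The regions chr11:99129334-99129824 (14375 bp below the gene) and chr11:99160622-99161524 (5545 bp above it) had no peak in 7 libraries at 0 h and a peak in all 8 at 72 h (exact test, adjusted p = 0.00399), with mean heights of 1.64 ± 0.318 and 1.63 ± 0.144 per M (SD, n = 4) in wild type. The region chr11:99176775-99177584, 21698 bp above, was lost: it had a peak in 4 of 4 wild-type and 1 of 3 knockout libraries at 0 h and in none at 72 h (adjusted p = 0.0308). That call ended when any of 13 libraries was left out, all but knockout replicates 1 and 3 at 0 h.

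S1pr1 showed the largest fall of the 42 regions, away from the gene. The region chr3:115682388-115683393, 27040 bp below the gene bound, had heights per M of 15.5, 15.6, 16.9 and 17.2 in the wild-type libraries and 14.7, 7.42 and 17.1 in the knockout libraries at 0 h, and 1.26, 1.23, 1.19 and 1.09 and 0.979, 1.66, 1.02 and 1.45 at 72 h. The region was tall in every library at 0 h, including knockout replicate 3, and low in every library at 72 h. Height at 72 h minus 0 h gave a log2 difference of −3.54 ± 0.197 (limma, adjusted p = 3.34e-68), 11.6-fold lower, and −2.92 (adjusted p = 1.10e-31) relative to the median region; 2 of all 21176 regions fell further. The fall was −3.78 in wild type and −3.30 in knockout.

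A neighbouring S1pr1 region, chr3:115673362-115674399, 36034 bp below the gene, had heights of 10.1, 9.79, 10.96 and 11.5 in the wild-type libraries and 8.47, 4.06 and 10.3 in the knockout libraries at 0 h, and 1.38, 1.23, 1.57 and 1.09 and 0.935, 1.78, 1.24 and 1.22 at 72 h. The times again did not overlap, and the log2 difference was −2.75 ± 0.1996 (limma, adjusted p = 9.44e-41), 6.74-fold lower. On the other side, chr3:115793220-115794045, 78165 bp above the gene, went from 8.82 ± 1.03 (SD, n = 4) to 2.200 ± 0.4399 (SD, n = 4) in wild type, and the knockout means were 6.09 ± 2.03 (SD, n = 3) and 1.68 ± 0.122 (SD, n = 4), a log2 difference of −1.91 ± 0.198 (limma, adjusted p = 1.88e-20).

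At the S1pr1 gene itself the fall was smaller. The boundary region chr3:115714067-115716519 had heights of 6.69, 6.59, 6.43 and 8.23 in the wild-type libraries and 7.87, 2.95 and 7.84 in the knockout libraries at 0 h, and 2.63, 2.65, 2.72 and 2.61 and 2.23, 2.66, 2.82 and 2.53 at 72 h. All libraries at 72 h lay below those at 0 h, knockout replicate 3 at 0 h being the nearest. On the log2 scale the difference was −1.27 ± 0.197 (limma, adjusted p = 7.79e-10), and −0.65 (adjusted p = 5.18e-10) relative to the median region. Of the 13 S1pr1 regions called in every library, 9 were lower per M, a share near the 65.4% over all regions, and none higher. Relative to the median region 9 were lower and 3 higher, against 39.1% and 34.4% of all regions.

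The 7 gained S1pr1 regions lay on both sides of the gene, 3 below it and 4 above. The tallest was chr3:115760965-115761737, 45910 bp above the gene, with no peak at 0 h, heights of 2.72, 3.41, 4.06 and 2.33 in wild type and 2.45, 1.98, 2.86 and 1.497 in knockout at 72 h (exact test, adjusted p = 0.00399). Next came chr3:115675706-115676425, 34008 bp below, with a peak in 1 of 7 libraries at 0 h and all 8 at 72 h (adjusted p = 0.0121). It lies between the 2 tall regions that fell. The regions chr3:115740692-115741326, chr3:115742649-115743247 and chr3:115692224-115692960 also had a peak in no library at 0 h and in all 8 at 72 h. The region chr3:115615976-115616482 went from 1 of 7 to 8 of 8, and chr3:115748802-115749372 from 0 of 7 to 6 of 8 (adjusted p = 0.0308), a call that ended without knockout replicate 1 or 4 at 72 h. The 3 lost S1pr1 regions lay 3370 to 16690 bp below the gene. Of these, chr3:115706567-115707063 and chr3:115695117-115695865 went from all 7 libraries to none, and chr3:115693380-115693743 from 6 of 7 to 1 of 8 (adjusted p = 0.0443). The last call ended without any one of 13 libraries, all but knockout replicate 3 at 0 h and wild-type replicate 1 at 72 h.

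**Figure D3:**
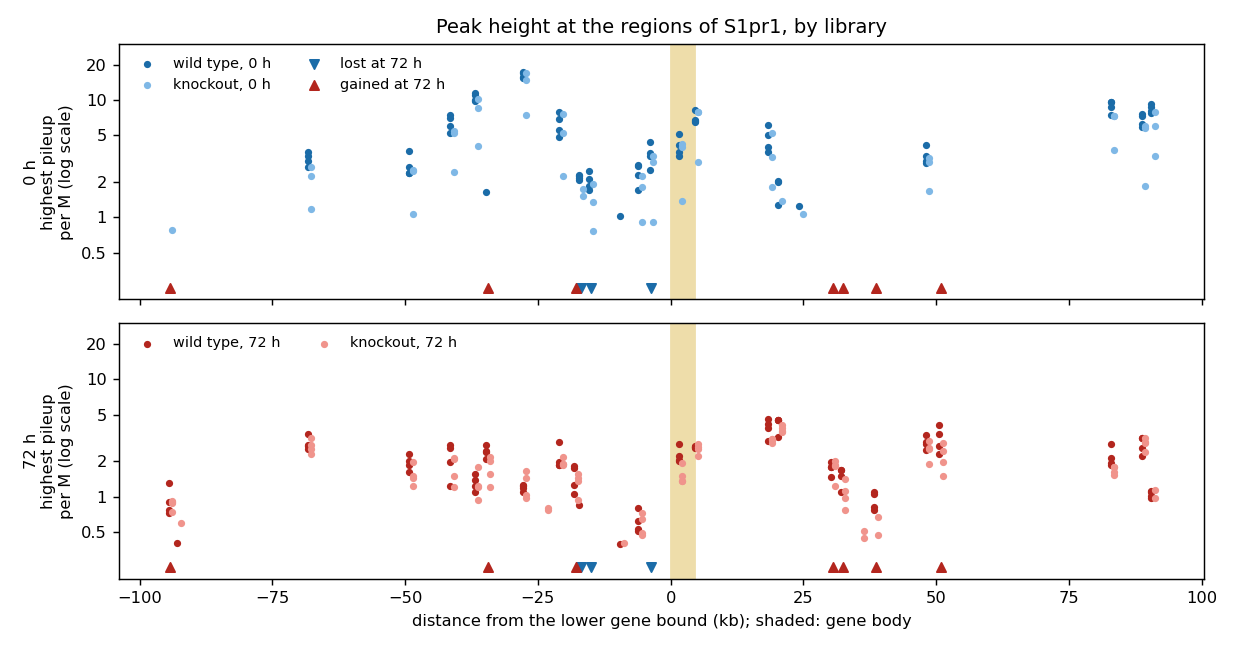
Height of each S1pr1 region by library (vertical axis, log scale, per M fragments) against distance from the lower gene bound in kb, at 0 h (upper panel) and 72 h (lower panel); a region without a peak has no point. The tallest region at 0 h, 27040 bp below the gene, falls from 7.42 to 17.2 per M to 0.979 to 1.66, and triangles mark the 7 gained and 3 lost regions.

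Of the KLF genes, Klf2 had one of the tallest starts. The start region chr8:72318631-72319633, which holds the window printed above with its GC boxes and MEF2-type letters, had heights of 10.7, 11.8, 14.8 and 16.7 in the wild-type libraries and 12.99, 6.16 and 15.9 in the knockout libraries at 0 h, and 6.202, 5.84, 6.36 and 4.51 and 4.81, 4.48, 5.34 and 5.71 at 72 h. Heights at 72 h were below those of the other 6 libraries at 0 h, but overlapped knockout replicate 3. The log2 difference was −1.16 ± 0.189 (limma, adjusted p = 4.83e-09), and −0.54 (adjusted p = 1.06e-10) relative to the median region. It still stood at percentile 89.3 of all such regions in wild type at 72 h, from percentile 94.5 at 0 h. The region 22731 bp below the gene, chr8:72295499-72296331, fell by 1.67 on the log2 scale (limma, adjusted p = 3.55e-15), without overlap between the times. Of the 5 Klf2 regions called in every library, 3 were lower per M and 1 higher, against 65.4% and 8.89% over all regions. Relative to the median region 2 were lower and 2 higher, against 39.1% and 34.4%.

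Klf2 also had the only region of the 42 that was higher per M at 72 h, singled out here after its values were seen. This region, chr8:72303136-72304069, 14993 bp upstream, had heights of 0.937, 0.828, 1.05 and 1.03 in the wild-type libraries and 0.706, 0.383 and 1.22 in the knockout libraries at 0 h, and 1.58, 1.49, 1.49 and 1.52 and 1.2, 1.61, 1.45 and 0.982 at 72 h. Wild-type libraries did not overlap between the times, and knockout libraries did. The difference on the log2 scale was 0.78 ± 0.1995 (limma, adjusted p = 1.85e-04), and 1.41 (adjusted p = 7.34e-13) relative to the median region. The region chr8:72324045-72324587, 2391 bp beyond the gene, lost its peak, from 6 of 7 libraries to none (adjusted p = 0.0121).

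The Klf3 start region chr5:64802556-64804320 had heights of 6.56, 8.21, 7.77 and 10.5 in the wild-type libraries and 6.85, 3.29 and 9.303 in the knockout libraries at 0 h, and 3.61, 4.28, 3.71 and 3.27 and 3.16, 3.71, 3.88 and 4.07 at 72 h. Knockout replicate 3 at 0 h lay among the values at 72 h. Height at 72 h minus 0 h gave a log2 difference of −0.91 ± 0.194 (limma, adjusted p = 7.68e-06), −0.29 (adjusted p = 3.43e-04) relative to the median region, and −0.14 with quantile-normalized heights (adjusted p = 0.0772), where it did not pass. Within the gene, chr5:64819385-64820143 had a peak in all 7 libraries at 0 h, with 6.21 ± 0.556 per M (SD, n = 4) in wild type, and in 2 of 8 at 72 h, both knockout (adjusted p = 0.0308). That call ended when either of 2 libraries was left out, knockout replicate 2 or 4 at 72 h. The region chr5:64864665-64865515, 31764 bp beyond the gene, went from 7 libraries to none (adjusted p = 0.00399).

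Btg1, which had the most regions of the 7 genes, also had the tallest start. The start region chr10:96616279-96618569, which holds the printed window with the FOXO-type letters, had heights of 14.2, 16.3, 20.02 and 19.9 in the wild-type libraries and 17.4, 7.61 and 19.3 in the knockout libraries at 0 h, and 8.51, 8.31, 7.77 and 5.95 and 5.56, 7.35, 6.74 and 7.58 at 72 h. It stood at percentile 98.4 of all such regions in wild type at 0 h and 96.7 at 72 h. On the log2 scale the difference was −1.11 ± 0.186 (limma, adjusted p = 1.47e-08), 2.16-fold lower, and −0.49 (adjusted p = 1.69e-10) relative to the median region. The times overlapped through knockout replicate 3 at 0 h alone.

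Other Btg1 regions differed in how far they fell. Of the 10 others called in every library, 6 had a larger log2 fall than the start and 4 a smaller difference, from −0.49 to −0.19, of which 1 passed as lower. The largest falls are given here. The region chr10:96534786-96536133, 80868 bp upstream, had heights of 3.66, 5.55, 5.83 and 5.23 in the wild-type libraries and 5.19, 2.03 and 3.99 in the knockout libraries at 0 h, and 0.892, 1.52, 1.42 and 0.817 and 0.757, 0.848, 0.939 and 0.795 at 72 h. The times did not overlap, and the log2 difference was −2.11 ± 0.203 (limma, adjusted p = 1.39e-23). The region chr10:96663478-96664697, 40665 bp downstream, had 7.56 ± 0.739 at 0 h and 2.22 ± 0.447 at 72 h (SD, n = 4 each) in wild type, a log2 difference of −1.84 ± 0.199 (limma, adjusted p = 6.85e-19). Of the 11 Btg1 regions called in every library, 8 were lower per M and none higher, against 65.4% and 8.89% over all regions. Relative to the median region 7 were lower and 2 higher, against 39.1% and 34.4%.

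The 8 lost Btg1 regions lay from within the gene to 83589 bp away. The tallest of them, chr10:96693760-96694268, 70947 bp downstream, had heights of 7.05, 7.69, 9.43 and 9.46 in wild type and 7.202, 4.21 and 7.403 in knockout at 0 h and no peak in any library at 72 h (exact test, adjusted p = 0.00399). The regions chr10:96579371-96579904, chr10:96602369-96602687 and chr10:96706402-96707175 likewise went from 7 libraries to none, and chr10:96589532-96590112 from 7 to 1 of 8 (adjusted p = 0.0121). The region chr10:96620832-96621910, which overlaps the gene, went from 7 to 2 of 8, chr10:96625688-96625988 from 5 to none (both adjusted p = 0.0443) and chr10:96634546-96635221 from 5 to none (adjusted p = 0.0308). Each of these 3 calls ended when any of 13 libraries was left out; the exceptions were replicate 3 of both genotypes at 72 h for the first, wild-type replicate 1 and knockout replicate 3 at 0 h for the second, and knockout replicates 1 and 3 at 0 h for the third. The region chr10:96632706-96633793, 9893 bp downstream, gained a peak in all 8 libraries at 72 h, with 1.203 ± 0.157 per M (SD, n = 4) in wild type.

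**Figure D4:**
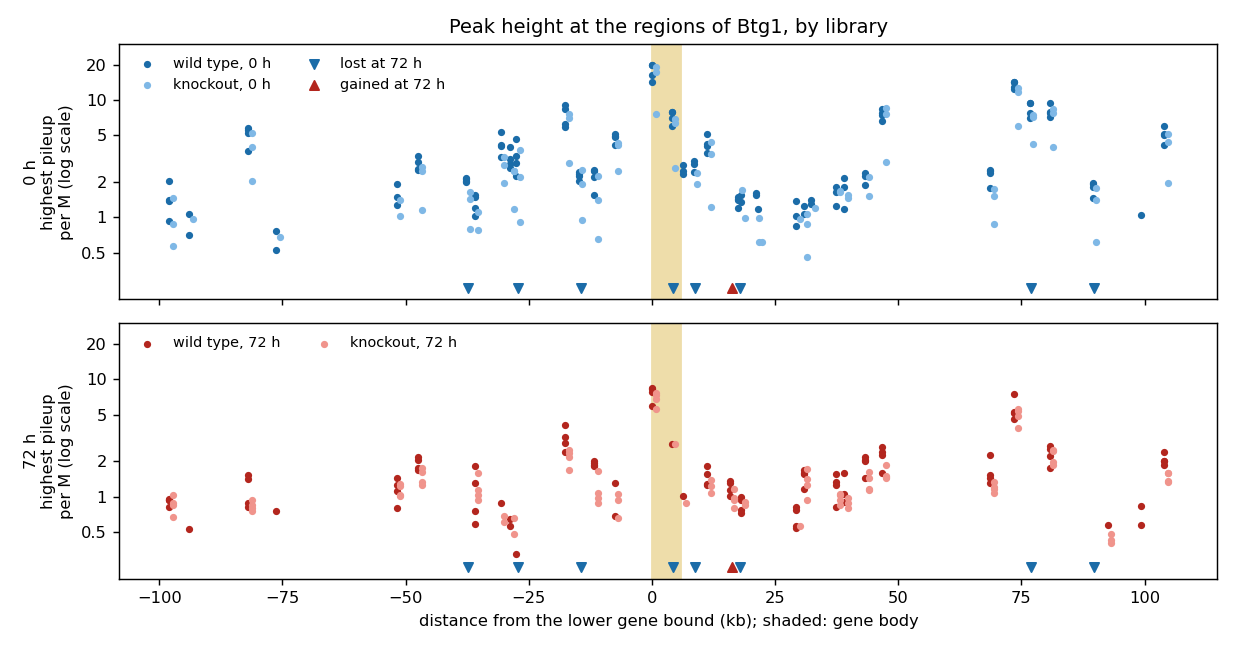
Height of each Btg1 region by library (vertical axis, log scale, per M fragments) against distance from the lower gene bound in kb, at 0 h and 72 h, drawn as for S1pr1. Most regions sit lower at 72 h, and 8 lost regions and 1 gained region are marked.

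Of the related antiproliferative genes, Btg2 fell at its start. Its region chr1:134077449-134080079 had heights of 6.51, 8.86, 9.87 and 8.59 in the wild-type libraries and 7.84, 4.13 and 9.84 in the knockout libraries at 0 h, and 4.01, 5.19, 3.41 and 3.31 and 3.605, 3.59, 3.202 and 3.93 at 72 h, which overlapped through knockout replicate 3 at 0 h. The log2 difference was −1.02 ± 0.193 (limma, adjusted p = 5.96e-07), and −0.39 (adjusted p = 8.83e-06) relative to the median region. The other 2 Btg2 regions called in every library were lower too, with log2 differences of −1.45 and −1.29, against 65.4% lower per M of all regions. The region chr1:134082852-134083455, 3697 bp upstream, gained a peak, with 2.43 ± 0.415 per M in wild type and 1.79 ± 0.405 in knockout at 72 h (SD, n = 4 each; exact test, adjusted p = 0.00399).

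At Tob1 the start changed less than at the other 6 genes; this difference between genes was not tested. The start region chr11:94209906-94211883 had heights of 7.67, 8.52, 9.55 and 9.42 in the wild-type libraries and 7.696, 3.63 and 8.77 in the knockout libraries at 0 h, and 6.24, 6.39, 5.896 and 4.55 and 4.49, 4.92, 5.68 and 5.38 at 72 h. Its log2 difference was −0.46 ± 0.191 (limma, adjusted p = 0.0247), a smaller fall than the median region's, so that relative to the median region it was higher, at 0.17 (adjusted p = 0.0137), and 0.34 with quantile-normalized heights (adjusted p = 2.10e-06). The call per M also ended when any of 4 libraries was left out, knockout replicate 1 or 4 at 0 h, wild-type replicate 4 at 72 h or knockout replicate 1 at 72 h. In wild type the region moved from percentile 79.3 to 89.5 of all such regions. The region chr11:94222965-94223988, 7470 bp beyond the gene, had a peak in all 7 libraries at 0 h, with 1.61 ± 0.181 per M (SD, n = 4) in wild type, and in none at 72 h (exact test, adjusted p = 0.00399).

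**Figure D5:**
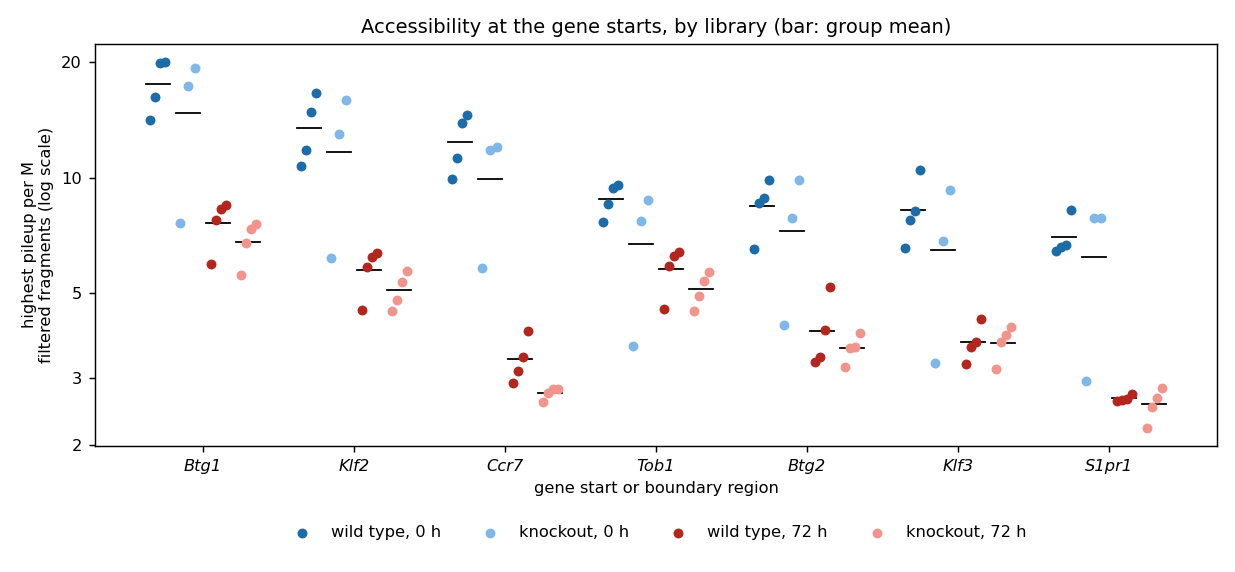
Height per M fragments (vertical axis, log scale) of the start or boundary region of each gene in every library, by group, with a bar at each group mean. Values at 72 h lie below those at 0 h for Ccr7 and S1pr1 in all libraries, and knockout replicate 3 is the lowest point at 0 h for every gene.

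The order of the start regions by mean height in untreated wild-type cells was Btg1 (17.6 per M), Klf2 (13.5), Ccr7 (12.4), Tob1 (8.79), Btg2 (8.46), Klf3 (8.26) and S1pr1 (6.99). Neighbours in this order differed by less than the larger of their 2 SDs, except for Btg1 against Klf2 and Ccr7 against Tob1. After 72 h Btg1 was still the tallest (7.64), followed by Tob1 (5.77), Klf2 (5.73), Btg2 (3.98), Klf3 (3.72), Ccr7 (3.35) and S1pr1 (2.65).

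Without knockout replicate 3 at 0 h, the starts of S1pr1 (−1.51), Klf2 (−1.37), Klf3 (−1.13), Btg1 (−1.32), Btg2 (−1.20) and Tob1 (−0.65) each passed as lower at 72 h, with the log2 difference per M in parentheses. The same fit gave −3.72, −2.95 and −2.07 for the S1pr1 regions away from the gene, −2.30 and −2.08 for those of Btg1, and −1.87 and 0.57 for the lower and the higher Klf2 region. Of 45 regions of these genes called in the other 14 libraries, 38 were lower and 3 higher, against 71.5% and 12.4% of all 24203.

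The comparison of knockout with wild type asked whether Irf5 loss altered these regions. By presence of a peak, no region of the 7 genes and 0.0% of all tested regions passed; 1 of the 114, chr10:96646210-96647085 at Btg1, and 1168 of all regions had an unadjusted p under 0.05. By height, none of the 42 passed at 0 h, at 72 h or in the test of genotype by activation, as in 0.0% of all regions in each (limma); 14, 7 and 1 of the 42 had an unadjusted p under 0.05, against 7802, 1066 and 454 of all 21176. Relative to the median region, none of the 42 passed at 0 h or in the test of genotype by activation, against 0.0331% of all regions higher at 0 h and 0.00472% lower in the latter. The median log2 difference per M between knockout and wild type over the 42 was −0.49 at 0 h and −0.33 at 72 h, against −0.52 and −0.22 over all regions. Without knockout replicate 3 at 0 h, the median at 0 h was −0.13 over 45 regions of these genes and −0.13 over all 24203, and 4 of the 45 had an unadjusted p under 0.05. Leaving out single libraries changed these counts. Without knockout replicate 4 at 0 h, 34 of the regions were called lower in knockout at 0 h, along with 81.4% of all regions. Without knockout replicate 3 at 0 h, 9 of 45 were called lower in knockout at 72 h, along with 4.81% of all regions. The fit used 1 estimate of a region's spread for all 4 groups, so that a library at 0 h also bears on the tests at 72 h.

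One region within Ccr7, chr11:99150048-99151498, is given because it was called relative to the median region, and was singled out after its values were seen. Its heights were 4.15, 3.76, 4.69 and 5.54 in the wild-type libraries and 3.04, 1.87 and 3.31 in the knockout libraries at 0 h, and 2.55, 3.302, 3.29 and 2.76 and 1.96, 1.61, 1.79 and 1.78 at 72 h. At 72 h every knockout library lay below every wild-type library. The same held at other regions of these genes, among them chr11:99170638-99171622 at Ccr7 and chr1:134092644-134094173 at Btg2. How often it held over all regions was not counted. For chr11:99150048-99151498, the difference between knockout and wild type at 72 h was −0.73 ± 0.273 per M (limma, adjusted p = 0.812). Relative to the median region it was −0.50 (limma, adjusted p = 0.042), where 0.264% of all regions were called lower and 0.94% higher. Without knockout replicate 3 at 0 h, the difference per M at 72 h was still −0.73 and passed (limma, adjusted p = 0.00356), while 4.81% of all regions passed as lower. The heights at 72 h were the same in both fits, while the spread shared by the groups and the set of regions tested (24203 in place of 21176) had changed. The difference at 0 h was −0.75 ± 0.295 per M (adjusted p = 0.126), and −0.50 without that library (adjusted p = 0.835). At the Ccr7 boundary region the corresponding values were −0.28 at 72 h and −0.39 at 0 h, and neither passed; without that library the value at 0 h was −0.04.

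Genes whose boundary regions varied most like the members' across the 15 libraries were found by Pearson's r of log2 height, as a description over libraries that share depth and time. The highest r was 0.993 between Ccr7 and Heg1, 0.991 between S1pr1 and Tsc22d3, 0.994 between Klf2 and the region shared by Fam228b and Pfn4, and 0.991 between Klf3 and Rin2. It was 0.997 between Btg1 and the region shared by Phtf2 and Tmem60, 0.989 between Btg2 and Atg16l2, and 0.992 between Tob1 and Glul. Over all boundary regions compared, the median r was 0.85 for Ccr7 to 0.91 for Btg1.

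Other genes of the same pathways were counted as lists, against 18.4% gained and 4.65% lost over all regions. The other 15 KLF genes had 134 regions, of which 25 were gained and 8 lost. Klf6 gained 8 and lost 1 of its 26, Klf7 gained 4 and lost 2 of 21, and Klf12 gained 5 of 13 and lost none. The 14 genes of sphingosine 1-phosphate signalling had 51 regions, with 6 gained and 1 lost. The 13 other genes of lymph node homing had 104 regions, with 14 gained and 8 lost. The 16 BTG/TOB relatives and partners, mostly subunits of CCR4-NOT, had 101 regions, with 14 gained and 4 lost. Pabpc1 gained 3 and lost 2 of 13, and the deadenylase gene Cnot6l gained 4 of 14 and lost none. The 8 genes upstream of KLF2 had 94 regions, with 9 gained and 6 lost, and Foxo1 lost 4 of 30 and gained 1. The 12 effector homing receptors had 61 regions, with 11 gained and 4 lost. Ccr6 gained 3 and lost 1 of 8, and Ccr9 gained 3 and lost 1 of 11. No region of these lists was called between genotypes.

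By height, the lists' regions with a peak in all 15 libraries were counted per M, against 65.4% lower and 8.89% higher over all regions, whose median log2 difference was −0.66. The KLF genes had 23 lower and 4 higher of 33 (median −0.88), sphingosine 1-phosphate signalling 18 and 0 of 22 (−0.86), and lymph node homing 24 and 2 of 34 (−0.79). The BTG/TOB partners had 27 and 2 of 34 (−0.85), the genes upstream of KLF2 17 and 2 of 23 (−1.04), and the effector homing receptors 11 and 1 of 14 (−0.81). Relative to the median region, the lower and higher counts were 17 and 10, 12 and 4, 17 and 11, 20 and 8, 16 and 6, and 7 and 4 in the same order. On that scale 39.1% of all regions were lower and 34.4% higher.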

How the data were processed

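The submitters' processing notes name Trim Galore 0.5.0, Bowtie2 2.2.9, MACS2 and HOMER 4.10.4, and the mm10 build. Per the file headers, MACS2 2.1.1.20160309 called peaks per library at a q-value of 0.05 with no control and 1 fragment kept per position. The deposited pileup was taken as the MACS2 coverage signal at the summit, and the deposited −log10 q values were used only as a filter.

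Genes came from RefSeq (GRCm38.p6, 21887 protein-coding genes). A gene's start region is the one at or nearest its start in the promoter table, or, for Ccr7 and S1pr1, the tallest region at the gene bounds. Presence was tested with a two-sided exact stratified hypergeometric test (smallest p 0.000408), and height with limma 3.58.1 (R 4.3.3, eBayes with trend) on log2 highest pileup per M filtered fragments, both with Benjamini-Hochberg adjustment over all regions; ± after a log2 difference is its standard error. Both tests were also run on simulated data. The simulated heights held no shift shared by all regions of a library, so they do not bear on libraries such as knockout replicate 3 at 0 h. A peak is present or absent by a threshold, so absence does not show closed chromatin. The members and lists were chosen with earlier results of these data known. Named were all 7 start regions, the regions called by presence (at most 8 a gene) and the 6 largest called height differences; other regions were named after their values were seen. The 4 merged lists were not used. Alternatives were other peak, distance, region and scaling rules, a replicate block and leaving out each library; equal peak numbers in 14 libraries were added after seeing the data.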

Additional observations from a re-analysis of the deposited data

Results flagged for a closer look

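Among the 13 regions described by height, 39 groups of 4 libraries were checked for a library far from the other 3, and 2 were found, about as many as chance gives at 1 in 20. At the S1pr1 boundary region chr3:115714067-115716519, wild-type replicate 4 at 0 h had 8.23 per M, against 6.43 to 6.69 in the other wild-type libraries. At the Btg1 region chr10:96663478-96664697, knockout replicate 2 at 72 h had 1.86 per M, against 1.45 to 1.497 in the other knockout libraries. Groups of 3, such as knockout at 0 h, were not checked in this way.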

How the results depend on the processing

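Of the 11 counts of regions, those by presence changed with the distance allowed to the gene: with at most 20 kb, 5 regions were gained and 10 lost, and with at most 1 kb, 0 and 2. A shorter limit leaves fewer regions, and shares over all regions at these limits are not given, so no contrast is drawn. With an equal number of peaks, 25 were lost. With the replicate number as a block, 0 were gained and 0 lost, but the smallest adjusted p that fit gave was 0.141, so it could not pass. Same-numbered libraries did not deviate together (r of −0.06 to 0.04 between the times, over 7 pairs, and −0.17 to 0.23 between genotypes), 1 and 3 of 14 libraries correlating best with their own number; the block on heights left the counts at 33 lower and 1 higher. Leaving out 1 library at a time gave 10 to 11 gained and 10 to 15 lost regions, 30 to 38 lower and 1 to 3 higher heights, 0 to 34 lower in knockout at 0 h and 0 to 9 lower at 72 h. Heights lower at 72 h numbered 20 within 20 kb and 13 of 13 within 1 kb. Regions higher at 72 h numbered 0 within 1 kb, 8 centred on the median region, 6 quantile-normalized, 0 among regions above the median height and 3 where 2 libraries of every group had a peak. These rules differ in the number of regions tested or in the share called over all regions, so the counts are not compared. Both centred and quantile-normalized heights gave 1 region lower in knockout at 72 h. The Tob1 start reversed, to 0.17 and 0.34. The causes were not tested. Over the 40 regions examined singly, 793 of 927 values under alternatives kept their direction and side of the threshold, 132 kept the direction without passing, and 2 reversed. Depth limits weak peaks: most gained regions were under 3 per M, and absence of a peak was not shown to be absence of accessibility.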
